A study of Homo sapiens with 2 samples.

Results

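PKM and 9 further genes of glucose use, SLC2A1, HK1, HK2, PFKP, ALDOA, GAPDH, ENO1, LDHA and PDK1, were followed in transcript-level RNA-seq of H9, a human embryonic stem cell line in wide use. They were taken by gene name, and comprise 94 of the 95139 transcripts and 10 of the 20263 genes in the deposited table. In one condition the cells had received small interfering RNA against HNRNPA1 for 48 h, and in the other a control small interfering RNA. These are called the knockdown library (siHNRNPA1 in the plots) and the control. HNRNPA1 encodes hnRNP A1, an RNA-binding regulator of splicing. Each condition is represented by 1 library, so no difference has a replicate check and no test could be made. The level of a gene is its FPKM, a fragment count scaled to transcript length and library size, summed over its transcripts.

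Glycolysis turns glucose into pyruvate in the cytosol. Glucose enters through carriers such as GLUT1 (SLC2A1), is trapped by hexokinases, is split by aldolase after phosphofructokinase has committed it, and passes through GAPDH, enolase and pyruvate kinase to pyruvate, which LDHA reduces to lactate. PDK1 phosphorylates pyruvate dehydrogenase and so limits entry of pyruvate into mitochondria. Primed human pluripotent stem cells are known for a high glycolytic flux. PKM gives rise to the M1 and M2 forms of pyruvate kinase by a choice between exon 9 and exon 10, and hnRNP A1 is known, together with hnRNP A2/B1 and PTBP1, as a repressor of exon 9 in proliferating cells.

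The libraries held 28147828 estimated counts (knockdown) and 26680342 (control). The targeted gene HNRNPA1 had 179.9 FPKM in the knockdown library and 663 in the control (log2 fold -1.88). The pluripotency marker genes POU5F1, SOX2, NANOG, LIN28A and DNMT3B ranged from 18.0 to 1355 FPKM in the knockdown library and from 22.6 to 864 in the control. SOX2 was at least 2-fold lower (58.3 against 126 FPKM, log2 fold -1.10), POU5F1 stood at 0.65, and the other 3 were within 2-fold. Of 10 markers of other cell types, SOX17 and GATA6 were listed at 0 in both libraries, and PAX6 and T were below 0.1 FPKM. TUBB3 (85.2 against 20.4 FPKM in the control) and NES (127 against 56.0) were at least 2-fold higher, KDR (8.02 against 32.0) at least 2-fold lower, and COL1A1, COL1A2 and THY1 within 2-fold. Mitochondrially encoded transcripts took 18.1% of TPM in the knockdown library and 28.2% in the control. The part of these differences in the results was not tested.

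PKM lies on chromosome 15 (ENSG00000067225, 72199029 to 72231822, minus strand, GRCh38) and had 16 transcripts in the table. The annotation holds a single pair of coding exons of equal length that no transcript combines. The one nearer the start of the gene is exon 9, which makes the M1 form (chr15:72203022-72203188), and the other is exon 10, which makes the M2 form (chr15:72202454-72202620). Both are 167 nucleotides long and match at 105 positions (62.9%) without gaps. Their sequences are shown, cut from the GENCODE transcripts and written in the direction of transcription, because every M1 and M2 value rests on which of them a transcript holds. Capitals mark the 62 positions at which they differ.
Exon 9 (M1): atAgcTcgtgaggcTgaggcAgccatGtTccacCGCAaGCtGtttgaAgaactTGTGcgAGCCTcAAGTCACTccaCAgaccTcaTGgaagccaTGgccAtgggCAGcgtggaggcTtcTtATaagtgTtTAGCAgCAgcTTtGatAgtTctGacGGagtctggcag
Exon 10 (M2): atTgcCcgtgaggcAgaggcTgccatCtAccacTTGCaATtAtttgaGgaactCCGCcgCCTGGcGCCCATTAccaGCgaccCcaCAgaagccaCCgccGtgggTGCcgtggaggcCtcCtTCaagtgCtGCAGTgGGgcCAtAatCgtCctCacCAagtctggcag

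The 4 letters TAGG, the core of the motif known for hnRNP A1, occurred in neither exon on either strand. Of 925 distinct internal exons of the same length in GENCODE, 13.4% held them on the transcribed strand and 29.1% on the opposite strand. The flanking introns were not analysed here.

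PKM as a gene had 595 FPKM in the knockdown library (95% counting interval 589 to 600) and 532 in the control (526 to 537), a log2 fold of 0.16. The 6 transcripts that hold exon 9 summed to 99.9 FPKM in the knockdown library and 66.9 in the control. The 4 that hold exon 10 summed to 486 and 430 FPKM. Summed over all transcripts M2 was thus the larger form in both libraries, but most of it came from PKM-219, described below. Without PKM-219 M1 was the larger form, at 74.2% of M1 plus M2 in the knockdown library and 76.8% in the control. With all transcripts M1 differed by a ratio of 1.49 against 1.13 for M2. On that basis M1 made up 17.1% of M1 plus M2 in the knockdown library and 13.5% in the control, a difference of 3.59 percentage points. From estimated counts the M1 share was 13.3% (Clopper-Pearson interval 12.9% to 13.6%, 5561 of 41941) and 11.9% (11.6% to 12.3%, 4074 of 34123), a difference of 1.32 points. These intervals do not overlap, but counting error is all they include. They leave out how samples vary and how reads were divided among overlapping transcripts.

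The M1 transcripts did not differ in the same direction. PKM-205 had 75.8 FPKM in the knockdown library and 22.2 in the control, and PKM-222 had 17.5 and 0.768. In contrast PKM-216 had 3.77 and 18.8 FPKM, PKM-220 had 0.813 and 21.8, PKM-201 had 1.93 and 2.88, and PKM-215 was listed at 0 against 0.547. PKM-205 lacks the last exon and the first exon of PKM-201 and ends at 72200508, with an annotated reading frame of 1455 nucleotides, against 1593 nucleotides in PKM-201, PKM-216 and PKM-220. PKM-222 lacks 3 exons that PKM-201 holds between its first exon and exon 9. Without PKM-205 the M1 share was 4.72% in the knockdown library and 9.43% in the control, so the direction of the M1 difference turned. Without PKM-222 it was 14.5% and 13.3% from FPKM. From estimated counts it was then 11.0% (10.7% to 11.3%) and 11.8% (11.5% to 12.2%), and the direction turned. The higher M1 share of the knockdown library therefore rested on PKM-205, and from counts on PKM-222 as well. Exon junction reads were not analysed here.

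**Figure D1:**
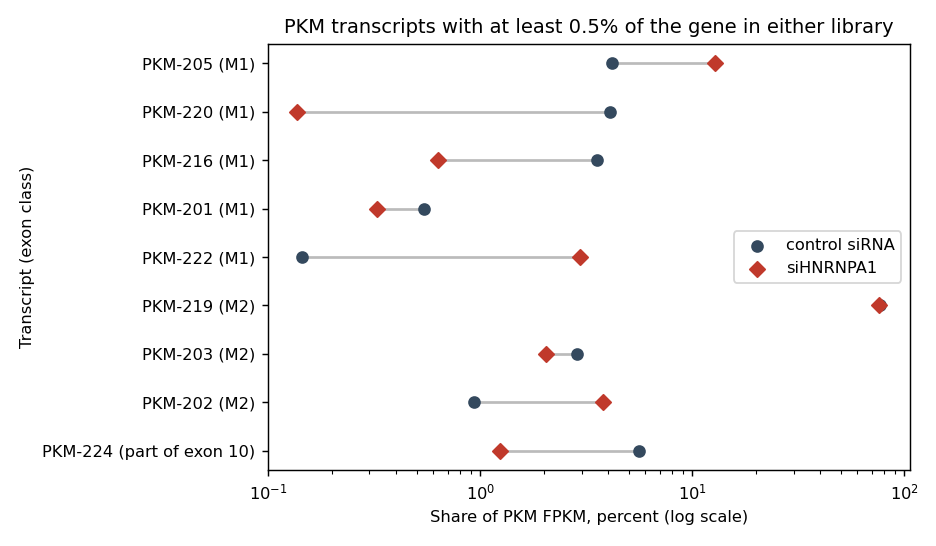
Share of PKM FPKM in percent (log scale) for each transcript with at least 0.5% in either library, grouped by the exon it holds, with 1 point per library. PKM-205 and PKM-222 were higher and PKM-220, PKM-216 and PKM-201 lower in the knockdown library, while PKM-219 held 75.8% and 77.1%.

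Most of PKM was assigned to PKM-219, which had 451 FPKM in the knockdown library and 410 in the control, or 75.8% and 77.1% of the gene. PKM-219 holds exon 10, but GENCODE classes it as a target of nonsense-mediated decay, the pathway that degrades messages with an early stop codon. Compared with PKM-202, a protein-coding M2 transcript, it has an added exon of 117 nucleotides (chr15:72221168-72221284) and lacks one of 92 nucleotides (chr15:72217409-72217500). The lacking exon is shown because its length leaves a remainder of 2 when divided by 3, so that its absence shifts the reading frame. The joined sequence that results in PKM-219 is shown from 30 nucleotides before the new junction to the stop codon, in capitals, 53 nucleotides after it.
Exon of PKM-202 absent from PKM-219: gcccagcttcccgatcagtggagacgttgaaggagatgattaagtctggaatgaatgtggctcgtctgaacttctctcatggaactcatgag
PKM-219 across the junction: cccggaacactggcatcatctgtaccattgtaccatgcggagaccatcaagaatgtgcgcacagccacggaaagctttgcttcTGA

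The annotated reading frame of PKM-219 is 207 nucleotides, against 1593 in PKM-202. PKM-202 itself had 22.6 FPKM in the knockdown library and 4.95 in the control. PKM-203, also an M2 transcript, had 12.2 and 15.2 FPKM. PKM-224, which ends inside exon 10 and is also classed as a decay target, had 7.34 and 29.9 FPKM, or 1.23% and 5.63% of the gene. Because PKM-219 carried most of M2, a restriction to transcripts annotated as protein-coding gave an M1 share of 74.2% in the knockdown library and 76.8% in the control. Under that restriction M1 was the larger form in both libraries. The difference of -2.69 points in its share has the opposite sign of the value from all transcripts. How well the deposited values divide reads between PKM-219 and PKM-202 was not tested.

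At the gene level the 10 members split. All passed the minimum mean of 1 FPKM, 6 had a fold above 0 and 4 below. SLC2A1 and ENO1 were at least 2-fold higher in the knockdown library on the scale log2((siHNRNPA1 + 1)/(control + 1)), that is 2 of 10, where 12.4% of all 11921 genes kept were. HK2 and PDK1 were at least 2-fold lower, also 2 of 10, where 21.9% of all genes were. In either direction the members past 2-fold were 4 of 10, against 34.3% of all genes. The median log2 fold was 0.29 over the members and -0.13 over all genes kept. Of all genes kept 1480 were at least 2-fold higher and 2609 lower as deposited, and 1904 and 2193 with median ratio scaling, which brought the median of all genes to 0.00. The 10 genes together took 1.50% of all FPKM in the knockdown library and 0.981% in the control.

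**Figure D2:**
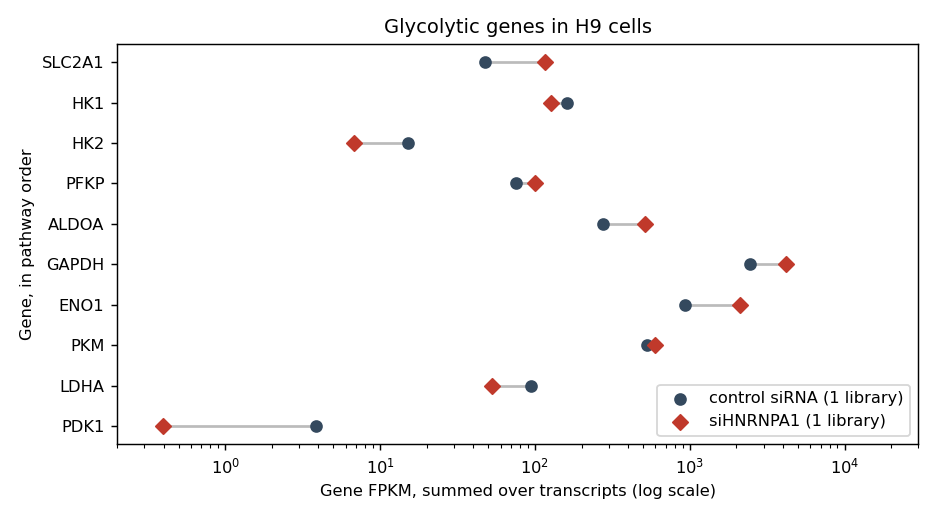
Gene FPKM (log scale) of the 10 genes in pathway order, with 1 point per library. SLC2A1, PFKP, ALDOA, GAPDH, ENO1 and PKM were higher in the knockdown library, while HK1, HK2, LDHA and PDK1 were lower, from 0.398 FPKM for PDK1 to 4173 for GAPDH.

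SLC2A1 (ENSG00000117394, chromosome 1, 42925375 to 42959173, minus strand), the carrier of basal glucose uptake, had 115 FPKM in the knockdown library (114 to 117) and 47.6 in the control (46.4 to 48.9). Its log2 fold of 1.26 was the highest of the 10, and 92.8% of all genes kept had a lower one. The ratio of its counts, each over its library total, gave a log2 value of 1.27 (1.23 to 1.32).

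HK1 (ENSG00000156515, chromosome 10, 69269984 to 69401882, plus strand), the widespread hexokinase, had 127 FPKM in the knockdown library (125 to 129) and 162 in the control (159 to 164), a log2 fold of -0.34. HK2 (ENSG00000159399, chromosome 2, 74833981 to 74893359, plus strand), the hexokinase known for its induction in growing cells, was far lower in both. It had 6.78 FPKM (6.42 to 7.16) and 15.2 (14.6 to 15.8), a log2 fold of -1.06. HK2 lay just past the 2-fold threshold and was within it under median ratio scaling (-0.91). PFKP (ENSG00000067057, chromosome 10, 3066333 to 3137712, plus strand), the platelet-type phosphofructokinase, had 101 FPKM (98.3 to 103) and 75.1 (73.1 to 77.2), a log2 fold of 0.42.

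The abundant enzymes of the middle of the pathway were all higher in the knockdown library as deposited. ALDOA (ENSG00000149925, chromosome 16, 30053090 to 30070420, plus strand), aldolase A, had 514 FPKM (507 to 520) and 276 in the control (272 to 281), a log2 fold of 0.89. It passed 2-fold under median ratio scaling (1.05). GAPDH (ENSG00000111640, chromosome 12, 6533927 to 6538374, plus strand) reached 4173 FPKM (4156 to 4190) and 2463 (2450 to 2476), a log2 fold of 0.76. It was the most abundant of the 10 genes and ranked 10th of all genes in the knockdown library and 15th in the control. ENO1 (ENSG00000074800, chromosome 1, 8861002 to 8879249, minus strand), enolase 1, had 2123 FPKM (2112 to 2135) and 931 (923 to 939), a log2 fold of 1.19. GAPDH is often taken as a reference gene of constant level, and its count ratio gave a log2 value of 0.76 (0.75 to 0.77).

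LDHA and PDK1, the members that act on the fate of pyruvate, were both lower in the knockdown library. LDHA (ENSG00000134333, chromosome 11, 18394388 to 18408425, plus strand) reached 53.0 FPKM in the knockdown library (51.2 to 54.9) and 94.2 in the control (91.7 to 96.8), a log2 fold of -0.82. PDK1 (ENSG00000152256, chromosome 2, 172555373 to 172608669, plus strand) reached 0.398 FPKM (0.344 to 0.459) and 3.84 (3.55 to 4.14), a log2 fold of -1.79. Of all genes kept 5.30% had a lower fold than PDK1. With a pseudocount of 0.1 FPKM in place of 1 its log2 fold was -2.98. Its counts, 189 and 663, differed less than that, with a log2 ratio of -1.89 (-2.13 to -1.65). The siHNRNPA1 counts were all assigned to its longest transcript, and FPKM divides by length.

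Folds in these libraries went with the base composition of the transcripts, and those of the members did so in part. In the quintile of genes with the lowest GC content, from 30.2% to 42.0%, the median log2 fold was -0.98, and it contained PDK1 (41.0%). In the next quintile the median was -0.61, and it contained LDHA (44.7%). In the middle quintile it was -0.15, with HK2 (51.2%). The next quintile, with a median of 0.35, held SLC2A1, HK1, PFKP, GAPDH, ENO1 and PKM (54.2% to 58.8%). Their folds ran from -0.34 in HK1 to 1.26 in SLC2A1. The highest quintile, with a median of 0.59, held ALDOA (61.2%). Against the median of the 100 genes nearest in mean expression, GC content and length, GAPDH stood at 0.02, ALDOA at 0.19, PFKP at -0.08, PKM at -0.42, ENO1 at 0.50 and SLC2A1 at 1.02. On the lower side HK1 stood at -0.56, LDHA at -0.53, HK2 at -0.48 and PDK1 at -1.30. By that measure 1 member, SLC2A1, was at least 2-fold higher, where 8.07% of all genes were, and 1 member, PDK1, was at least 2-fold lower, where 8.41% were. PDK1 was matched by PDK1-203, its leading transcript in mean FPKM, of 2990 nucleotides. All of its counts in the knockdown library were on PDK1-201, of 14193 nucleotides, so its nearest genes were not matched to that length. The part of base composition in the folds was not tested further.

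**Figure D3:**
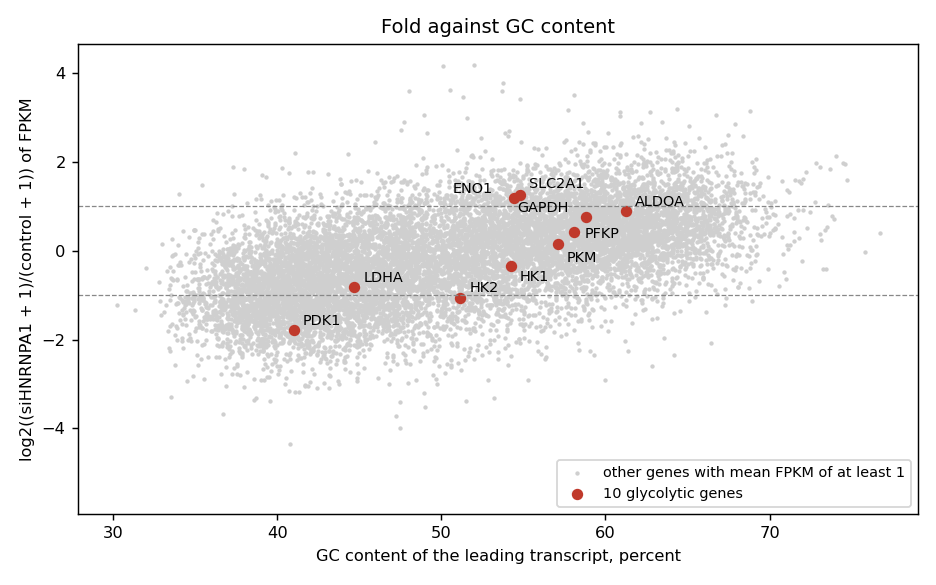
Log2 fold of gene FPKM against the GC content of each gene's most abundant transcript, with the 10 genes in red and all other genes kept in grey, and dashed lines at 2-fold. The members run from PDK1 at 41.0% GC and -1.79 to ALDOA at 61.2% GC and 0.89, within the cloud of other genes.

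Transcript shares, each transcript's percentage of its gene's FPKM, do not depend on how the libraries are scaled. Of the 9 members with at least 5 FPKM in both libraries, HK2 and LDHA had a transcript whose share differed by at least 20 points, that is 2 of 9, where 40.6% of 5715 such genes did. The largest difference was 43.4 points in HK2, 21.6 in LDHA and 16.1 in PFKP, above the median of 15.4 over all such genes. It was 9.17 in ALDOA, 8.58 in PKM, 4.17 in GAPDH, 3.20 in SLC2A1, 1.80 in ENO1 and 0.148 in HK1, so 6 of the 9 members lay under that median. HK1-202 held 100% and 99.9% of HK1, ENO1-201 99.1% and 97.3% of ENO1, SLC2A1-203 92.2% and 95.4% of SLC2A1, and GAPDH-201 70.7% and 74.4% of GAPDH.

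HK2 was listed with 2 transcripts. HK2-201 had 6.77 FPKM in the knockdown library and 8.56 in the control, and HK2-202 had 0.0177 and 6.64, from 4 and 1088 counts. HK2-202 thus held 0.262% of the gene in the knockdown library and 43.7% in the control, a difference of -43.4 points, and most of the gene's difference in FPKM lay in it. From counts its share was 0.307% (0.0838% to 0.785%) and 41.5% (39.6% to 43.4%). HK2-202 starts further downstream, at 74835170 against 74833981, and its annotated reading frame of 2667 nucleotides lacks the first 84 of the 2751 in HK2-201. Those 84 nucleotides, which begin in the exon part at chr2:74834581-74834643 on the plus strand, are shown, with the start codon in capitals, since they encode the beginning of the protein, the part by which hexokinase 2 is known to attach to mitochondria.
HK2-201 start of the reading frame: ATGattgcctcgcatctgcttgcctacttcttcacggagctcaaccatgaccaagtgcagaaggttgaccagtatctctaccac

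LDHA showed a shift between transcripts with the same annotated reading frame of 996 nucleotides. LDHA-203 had 33.9 FPKM in the knockdown library and 39.9 in the control, a share of 64.0% and 42.4%. LDHA-205 had 1.77 and 19.2 FPKM, a share of 3.34% and 20.4%. The former starts at 18396278 and the latter at 18394388. LDHA-204 held 11.6% and 12.3%. The decay-classed LDHA-223 held 15.4% and 9.78%, and LDHA-219, classed likewise, 1.22% and 5.89%.

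PFKP-203, the full-length form with 22 exons, had 56.9 FPKM in the knockdown library and 53.2 in the control, or 56.5% and 70.8% of PFKP. PFKP-201, a form of 6 exons from the end of the gene, had 35.9 and 14.7 FPKM, or 35.7% and 19.6%. The gene's higher level thus lay mostly in the short form. ALDOA was spread over 6 transcripts above 5%, led by ALDOA-219 (41.5% and 37.4%) and ALDOA-218 (21.9% and 17.0%). ALDOA-201 differed most, with 3.77% and 12.9%. ALDOA-209 held 6.44% and 9.15%, ALDOA-206 7.07% and 9.03%, and ALDOA-202 7.08% and 4.60%. In GAPDH the shares of GAPDH-204 were 14.3% and 10.2%, those of GAPDH-203 4.27% and 6.11%, and those of GAPDH-205 5.48% and 4.37%. SLC2A1-208, classed as a decay target, held 5.25% and 3.13%. PDK1 was below the 5 FPKM minimum. Its 189 counts in the knockdown library were all on PDK1-201, of 14193 nucleotides, which held 29.1% of PDK1 FPKM in the control but 74.5% of its counts (494 of 663), since FPKM divides by length. There PDK1-203 held 39.7% of FPKM and 21.4% of counts, PDK1-205 16.8% and PDK1-204 14.4% of FPKM (2.26% and 1.81% of counts), and all of these were listed at 0 in the knockdown library.

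**Figure D4:**
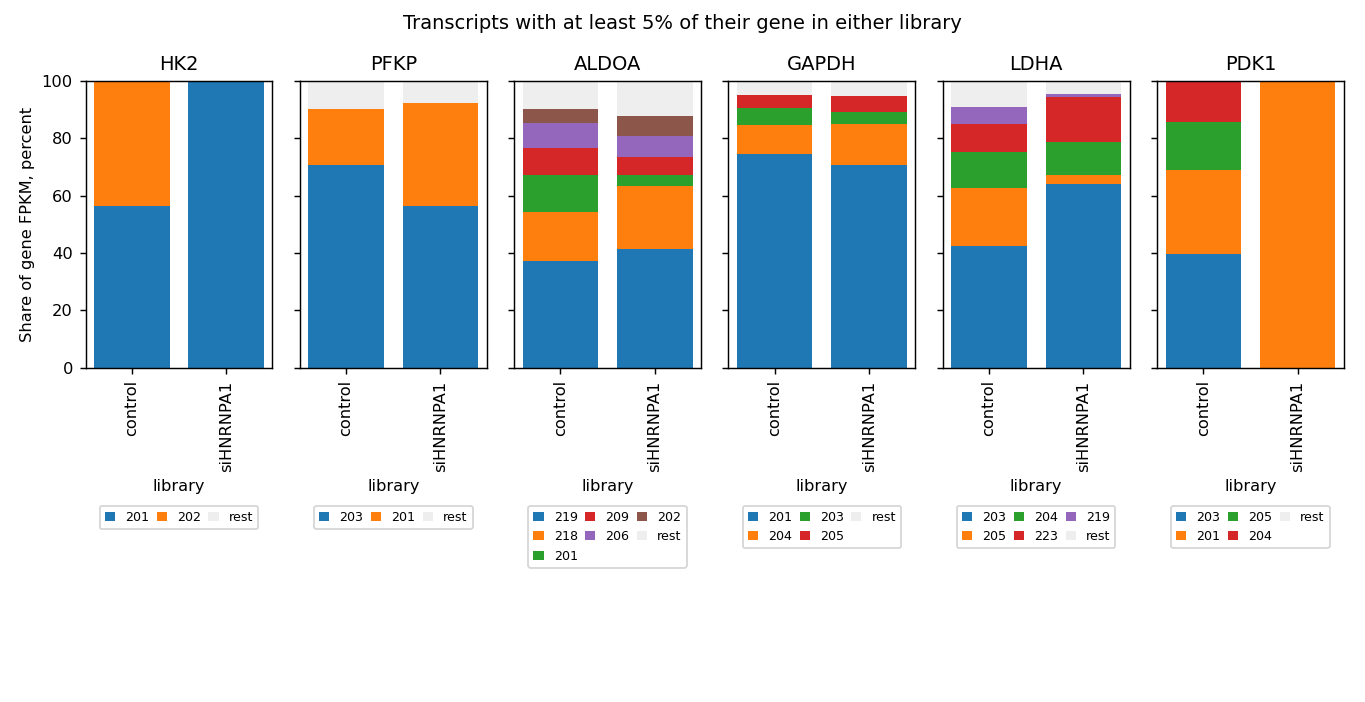
Stacked share of gene FPKM in percent for transcripts with at least 5% of their gene in either library, with 1 bar per library, numbered as in GENCODE, and the rest in light grey. HK2-202 held 43.7% of HK2 in the control and 0.262% in the knockdown library, and LDHA-203 held 42.4% in the control and 64.0% in the knockdown library.

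Several members share sequence with other loci. GENCODE names 80 pseudogenes after the 10 genes, 62 of them after GAPDH, and the table lists 0 of them, so reads from such copies cannot be told apart here. The table counts under ALDOA 5 transcripts that GENCODE release 29 places in the overlapping gene AC093512.2, which held 5.75% of ALDOA FPKM in the knockdown library and 4.87% in the control. SLC2A1 and ENO1 each overlap an antisense gene, SLC2A1-AS1 and ENO1-AS1. HK1, HK2, ALDOA, GAPDH and PDK1 also overlap annotated genes on the opposite strand. The sources used here do not say if strand was used in counting.

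The other genes of the pathway were taken from lists of glycolysis and its branches with 94 genes. Of these 67 were measured at a mean of at least 1 FPKM, 7 were at least 2-fold higher and 9 lower, and the median log2 fold was 0.16. Without the 10 members 57 genes were measured, with 5 higher, 7 lower and a median of 0.11. These counts compare with 12.4% higher and 21.9% lower over all genes kept. After subtraction of the nearest genes 5 of the 67 were higher and 4 lower, with a median of -0.04. By that measure 8.07% of all genes kept were higher and 8.41% lower.

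Among 9 measured glucose carriers 3 were at least 2-fold higher and 1 lower, against 12.4% and 21.9% of all genes. After subtraction of the nearest genes 2 were higher, SLC2A1 and SLC2A6 (1.70), and 0 lower, against 8.07% and 8.41% of all genes. SLC2A8 then stood at 0.37 and SLC2A12 at -0.79. SLC2A6, a lysosomal carrier, had 33.8 FPKM in the knockdown library and 6.21 in the control (log2 fold 2.27), SLC2A8 had 19.6 and 8.15 (1.17), and SLC2A12 had 0.130 and 2.30 (-1.55). SLC2A3, the high-affinity GLUT3, was the most abundant carrier of the control at 184 FPKM and had 102 in the knockdown library (-0.84), so that SLC2A1 was above it only in the latter. SLC2A14, nearly identical to SLC2A3, stood at -0.47 and is uncertain for that reason. SLC2A10 stood at -0.98, SLC2A4 at -0.58 and SLC2A11 at 0.50. Beside HK1 and HK2, ADPGK, which phosphorylates glucose with ADP, stood at -0.37.

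In upper glycolysis 0 of 7 measured genes were past 2-fold, against 34.3% of all genes in either direction, with a median of 0.43. The median turned to -0.08 after subtraction of the nearest genes, and with median ratio scaling 2 of the 7 were at least 2-fold higher, ALDOA (1.05) and TPI1 (1.13). TPI1, triosephosphate isomerase, had 804 and 409 FPKM (0.98), PFKL, the liver-type phosphofructokinase, 63.0 and 41.4 (0.59), GPI, glucose-6-phosphate isomerase, 154 and 114 (0.43), PFKM, the muscle type, 23.9 and 28.9 (-0.27), and ALDOC 41.7 and 36.8 (0.18). In lower glycolysis 2 of 11 were at least 2-fold higher (12.4% of all genes), ENO3 (25.1 and 7.54 FPKM, 1.61) beside ENO1, and 1 lower (21.9% of all genes), PKLR, the liver and red cell pyruvate kinase (0.611 and 2.27 FPKM, -1.02). After subtraction of the nearest genes ENO1 (0.50) and ENO3 (0.70) were within 2-fold. PGK1 was then the 1 higher gene (1.05), where 8.07% of all genes were, and PKLR stood at -1.15, where 8.41% were lower. With median ratio scaling PKLR was within 2-fold (-0.94). ENO2, the neuronal enolase, stood at 0.56, PGAM1 at 0.27, GAPDHS, the sperm-specific form, at 0.22, and PGK1, phosphoglycerate kinase, at 0.07. PGAM4 (-0.18) is a near copy of PGAM1 and uncertain.

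On the lactate side 1 of 7 measured genes was at least 2-fold lower, against 21.9% of all genes. After subtraction of the nearest genes 0 were, against 8.41% of all genes, and SLC16A1 stood at -0.03. SLC16A1, the lactate carrier MCT1, had 42.8 and 92.4 FPKM (-1.09), SLC16A3, the exporter MCT4, 4.51 and 1.83 (0.96), EMB, an MCT partner, 2.58 and 5.66 (-0.89), and LDHB 537 and 471 (0.19). LDHB was thus above LDHA in both libraries. In the pyruvate dehydrogenase list 4 of 13 were at least 2-fold lower and 0 higher, against 21.9% and 12.4% of all genes, with a median of -0.28. Beside PDK1 these were DLAT, the acetyltransferase subunit of the complex (6.40 and 24.5 FPKM, -1.79), and the phosphatases PDP2 (2.46 and 8.18, -1.41) and PDP1 (0.972 and 3.16, -1.08). After subtraction of the nearest genes the median was 0.23, and PDK1 and DLAT (-1.40) were lower, where 8.41% of all genes were. PDP1 (-0.15) and PDP2 (-0.37) were within 2-fold. DLD, the dehydrogenase subunit shared with other complexes, was higher (1.08), where 8.07% of all genes were. As deposited DLD had 11.4 and 12.8 FPKM (-0.16). The other kinases measured were PDK2 (0.47) and PDK3 (-0.28). PFKFB2, a bifunctional regulator of phosphofructokinase, had 1.01 and 3.78 FPKM (-1.25), but stood at -0.04 after subtraction of the nearest genes. PFKFB3 had 3.72 and 8.44 FPKM, just inside the threshold with the pseudocount of 1 FPKM (-0.9999). The log2 ratio of its counts was past it, at -1.33 (-1.49 to -1.16). PFKFB4 stood at 0.38, and TIGAR at 0.37, or 1.20 after the subtraction. In the branches G6PC3, a glucose-6-phosphatase, stood at 1.50 and PGLS, of the pentose phosphate pathway, at 1.05, while TKT, transketolase, had 532 and 855 FPKM (-0.68). With the nearest genes subtracted G6PC3 (0.70) and PGLS (0.02) were within 2-fold and TKT was past it (-1.26). PC stood at 0.69, PCK2 at 0.60, FBP1 at 0.17, H6PD at -0.84 and RPE at -0.83.

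**Figure D5:**
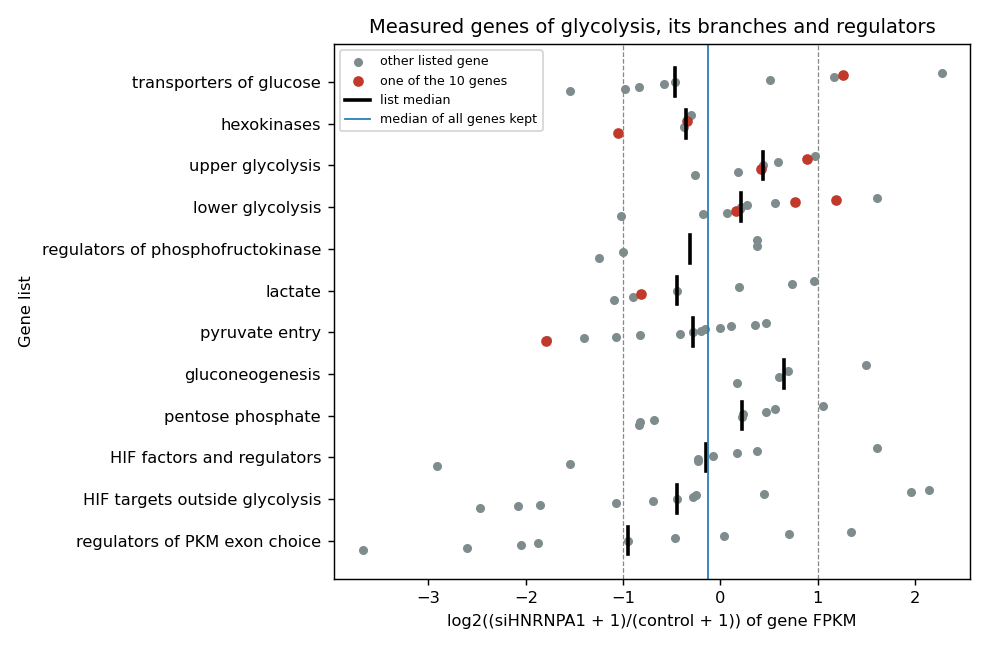
Log2 fold of gene FPKM for each measured gene of 12 lists, with the 10 genes in red, the list medians as black bars, the median of all genes kept (-0.13) as a blue line and dashed lines at 2-fold. As deposited, upper glycolysis has a median of 0.43 and lies within 2-fold (median -0.08 with the nearest genes subtracted, and 2 genes past 2-fold with median ratio scaling), and the regulators of PKM exon choice reach from PTBP3 at -3.68 to RBM4 at 1.34.

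Of the 9 genes known to act on the choice between the PKM exons 4 were at least 2-fold lower, the targeted HNRNPA1 itself among them, and 1 higher, against 21.9% and 12.4% of all genes, with a median of -0.95. After subtraction of the nearest genes 5 were lower, where 8.41% of all genes were, and the median was -1.37. HNRNPA1 was again among them, and MYC (-1.54) was added. The log2 ratio of MYC counts was smaller, -0.52 (-0.84 to -0.20). The 1 higher gene was then SRSF3 (1.79), where 8.07% of all genes were, with RBM4 at 0.80. HNRNPA2B1, a close relative of HNRNPA1, had 825 FPKM in the knockdown library and 802 in the control (log2 fold 0.04). PTBP1, which binds pyrimidine tracts beside exon 9, had 94.7 and 131 FPKM (-0.46). Its paralogs PTBP2 (0.680 and 9.23 FPKM, -2.61) and PTBP3 (0.187 and 14.2 FPKM, -3.68) were lower, as was the kinase NEK2 (2.74 and 14.5 FPKM, -2.05). SRSF3, known to favour exon 10, had 71.7 and 43.7 FPKM (0.70), and the log2 ratio of its counts was larger, 1.13 (1.08 to 1.19). RBM4, known to favour exon 9, had 116 and 45.2 FPKM (1.34), and MYC, which raises the level of the repressors, had 2.30 and 5.35 (-0.95). From counts over the library total 2 of the 9 genes were at least 2-fold higher, SRSF3 and RBM4, and 4 lower. Of all 11921 genes kept 1730 were then higher and 2942 lower. The part of any of these genes in the PKM exon shares was not tested.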

How the data were processed

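The authors deposited 1 table of transcripts. Per the file headers it holds for each library an estimated count, a TPM and an FPKM value per transcript, and 6 further columns of per-sample values match neither library and were not used. The deposited counts are whole numbers that overlapping transcripts share. Of counts from 1 to 3, 90.0% (siHNRNPA1) and 90.9% (control) equalled the count implied by FPKM and length rounded up (tolerance 0.05), so they were read as estimated counts. TPM values deposited by the authors served for the mitochondrial share only. The deposited FPKM values were summed per gene. Which aligner, quantifier and annotation were used is not given in the sources used here. Builds named in the submitters' processing notes are GRCm38 and mm10, both of mouse, while the identifiers are human. Of the 94 transcripts of the 10 genes, 93 are in GENCODE release 29 (GRCh38) and 83 have the same position there, among them all 16 of PKM. Exons, reading frames, sequences and biotypes are from that release.

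Folds are log2((siHNRNPA1 + 1)/(control + 1)) of gene FPKM, which understates changes of low genes. A gene was kept when its mean FPKM reached 1. No test was made, because each condition has 1 library. Intervals (95%, exact Poisson for levels, Clopper-Pearson for shares and for the ratio of counts) cover counting error only. The alternatives were other pseudocounts, scalings and expression minimums, counts in place of FPKM, and subtraction of a local median fold, over the 100 genes nearest in mean expression, GC content and length of the leading transcript. Python 3.11.15, pandas 2.3.3, NumPy 2.4.6, SciPy 1.17.1 and matplotlib 3.10.9 were used, and the calculations were tested on simulated data. The genes and lists were chosen with earlier results of these data known. The genes named were the 10 members, their measured alternatives at the same step, the measured regulators of PKM exon choice, and up to 4 measured genes with the largest absolute fold in each other list. Transcripts of the 10 genes were named from 5% of the gene's FPKM in either library. The smaller PKM transcripts, DLD and HIF1AN were named after their values had been seen. One gene that this rule names is not reported here.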

Additional observations from a re-analysis of the deposited data

How the results depend on the processing

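No paired analysis was possible because each condition had 1 library, and for the same reason no library could be left out. Of 60 recomputed folds of the 10 genes, 58 kept their sign, and PFKP (-0.08) and PKM (-0.42) turned below 0 after subtraction of the nearest genes. The count of members at least 2-fold lower (2) became 0 with a pseudocount of 5 FPKM, and 1 each with median ratio scaling, with the nearest genes subtracted and with a mean FPKM of at least 5. The count at least 2-fold higher (2) became 1 with the nearest genes subtracted. The count of pathway genes at least 2-fold lower (9) became 2 with a pseudocount of 5 FPKM, 15 with each library rescaled to a sum of 1000000, 5 with median ratio scaling, 4 with the nearest genes subtracted and 4 with a mean FPKM of at least 5. The count of members with a share difference of 20 points (2) became 1 when only transcripts with at least 1 FPKM in both libraries were used, which removes HK2-202. The difference in PKM M1 share (3.59 points) was 1.32 from counts, 5.12 from transcripts with at least 1 FPKM in both libraries, 4.14 with PKM-224 counted as M2, 1.16 without PKM-222, -4.71 without PKM-205, and -2.69 both from protein-coding transcripts only and without PKM-219. PKM-219 is the M2 transcript that the protein-coding restriction removes. From counts without PKM-222 the M1 share was lower in the knockdown library (11.0%) than in the control (11.8%). The alternatives on PKM-224, PKM-222, PKM-205 and PKM-219 were chosen after seeing the data. Depth limited PDK1 most, with 189 counts in the siHNRNPA1 library.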

Other observations

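Genes around hypoxia-inducible factor, the transcription factor that induces many glycolytic genes at low oxygen, were measured as well. HIF1A, its oxygen-regulated subunit, had 8.16 FPKM in the knockdown library and 68.2 in the control (log2 fold -2.92), from 1057 and 8272 estimated counts. It stood at -1.71 after subtraction of its nearest genes. ARNT, the partner subunit, had 4.14 and 14.0 FPKM (-1.54, or -0.68 after the subtraction). EGLN2, a prolyl hydroxylase that marks the factor for degradation, had 96.9 and 31.0 FPKM (1.61, or 0.79 after the subtraction), and EGLN3 stood at 0.38. Of the 8 measured genes of this list 1 was past 2-fold on the higher side and 2 on the lower side, against 12.4% and 21.9% of all genes. Their median log2 fold was -0.15, against -0.13 for all genes kept. It turned to 0.33 after the subtraction. HIF1A was then the 1 lower gene, where 8.41% of all genes were. HIF1AN, an asparaginyl hydroxylase that inhibits the factor, was the 1 higher gene (1.23), where 8.07% of all genes were. As deposited HIF1AN had 6.26 and 5.45 FPKM (0.17).

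Among 11 measured target genes outside glycolysis 2 were past 2-fold on the higher side and 4 on the lower, against the same 12.4% and 21.9%, and the median was -0.45. ADM, a vasodilator peptide precursor, had 38.4 and 7.91 FPKM (2.15), and DDIT4, an inhibitor of mTOR signalling, had 63.5 and 15.6 FPKM (1.96). On the other side MXI1, a MYC antagonist, had 1.00 and 10.1 FPKM (-2.47), and PLOD2, a collagen lysyl hydroxylase, had 0.784 and 6.57 FPKM (-2.08). With the nearest genes subtracted the median was 0.01, with 2 genes at least 2-fold higher and 2 lower, against 8.07% and 8.41% of all genes.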
